A study of Mus musculus with 14 samples.

Results

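Chemokine ligand genes encode small secreted or membrane-held proteins that attract cells carrying matching receptors. Here they were taken as every entry whose symbol is Ccl, Cxcl, Xcl or Cx3cl followed by a number and at most 1 letter, which gave 39 of the 24421 entries in the deposited count tables. The 12 bulk libraries came from mouse gastric tumours that had been transplanted and were taken 2 months later, as about 1 cm3 of tissue each, for polyA RNA sequencing. There were 4 groups of 3 libraries: TM, TMP and TMPC tumours grown under the skin (subcutaneous), and TMPC tumours grown in the organ of origin (orthotopic). TM, TMP and TMPC are the labels' names for the tumours, and the alleles behind the letters, the host strain and the host age are not given in the labels used here. Whether the 3 libraries of a group came from different mice is not stated, so a p-value here speaks of the scatter among libraries, and that scatter may be technical. Below, TM, TMP and TMPC mean the subcutaneous groups unless orthotopic is written, and values in each list are replicates 1, 2 and 3 in order.

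Chemokines fall into families by the spacing of their first cysteines, which the letters C, CC, CXC and CX3C record, and act through receptors that couple to G proteins. Homeostatic chemokines such as Cxcl12, Cxcl13, Ccl19 and Ccl21 lay out lymphoid and stromal tissue, whereas inflammatory ones such as Cxcl1, Cxcl9 or Ccl2 are switched on by cytokines and recruit neutrophils, T cells or monocytes. In stomach and other mucosa a further set, among them Ccl20, Ccl25, Ccl28, Cxcl16 and Cxcl17, is made by epithelium.

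Total counts were 16584781 to 21107310 per library. In CPM (counts scaled to a common library size), 3 counts are the most that a count of 0 allows. They correspond to 0.133 CPM in orthotopic replicate 1, the lowest, up to 0.201 CPM in TM replicate 2, the highest. A pair of libraries stood apart from their groups. TM replicate 2 summed to 217 CPM over the epithelial markers, against 3799 and 4084 in the other TM libraries, and to 2325 over the plasma cell markers, against 3.78 and 7.65. Orthotopic TMPC replicate 3 summed to 7060.3 CPM over liver markers, against 46.4 and 42.2. Gastric epithelial markers summed to 3786 to 6272 CPM in orthotopic libraries but to no more than 26.6 in any subcutaneous one. Counts of calls against TM are therefore also given without TM replicate 2, and those between sites without orthotopic replicate 3, and so are the values of single genes that moved with these libraries. In bulk tissue, fewer cells of a type and less RNA per cell cannot be told apart.

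All 39 members could be accounted for. Ccl21a, Ccl21b, Ccl21c, Ccl26 and Ccl27b were listed at 0 counts in every library, 5 members of which the Ccl21 and Ccl27 genes have near-identical copies that share reads. Ccl1, a product of activated T cells, stayed between 0 and 0.229 CPM and did not pass the filter on low counts, nor did Ccl19. The remaining 32 were tested among the subcutaneous groups. Between the sites 29 were tested, because Cxcl11, Cxcl15 and Xcl1 also fell under the filter there. Counting is not stated to have used strand, and exons of Ccl25, Ccl27a, Cxcl10, Cxcl11, Cxcl16 and Xcl1 overlap a gene on the opposite strand, so their levels are uncertain by whatever that partner adds.

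The members together took 0.152, 0.638 and 0.172% of all counts in TM, 0.0499, 0.0730 and 0.0796% in TMP, 0.0385, 0.0305 and 0.0611% in TMPC and 0.0968, 0.0910 and 0.197% in orthotopic TMPC. Every TM library thus lay above every TMP and TMPC library, and TM replicate 2 lay above all others. Levels of different genes were compared only per kilobase (kb) of transcript. Per kb, TM replicates 1 and 3 were led by Cxcl13, the ligand that guides B cells into follicles (291 and 339 CPM per kb), followed by Cxcl17, a mucosal chemokine (206 and 278). TM replicate 2 was led by Ccl8 (1276) and Cxcl9 (894). In all 6 TMP and TMPC libraries Cxcl14, made by epithelium and fibroblasts, ranked first, at 44.7 to 167 CPM per kb. Orthotopic replicates 1 and 2 were led by Cxcl17 (227 and 180.3), and replicate 3 by Cxcl14 (383) and Cxcl13 (199).

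**Figure D1:**
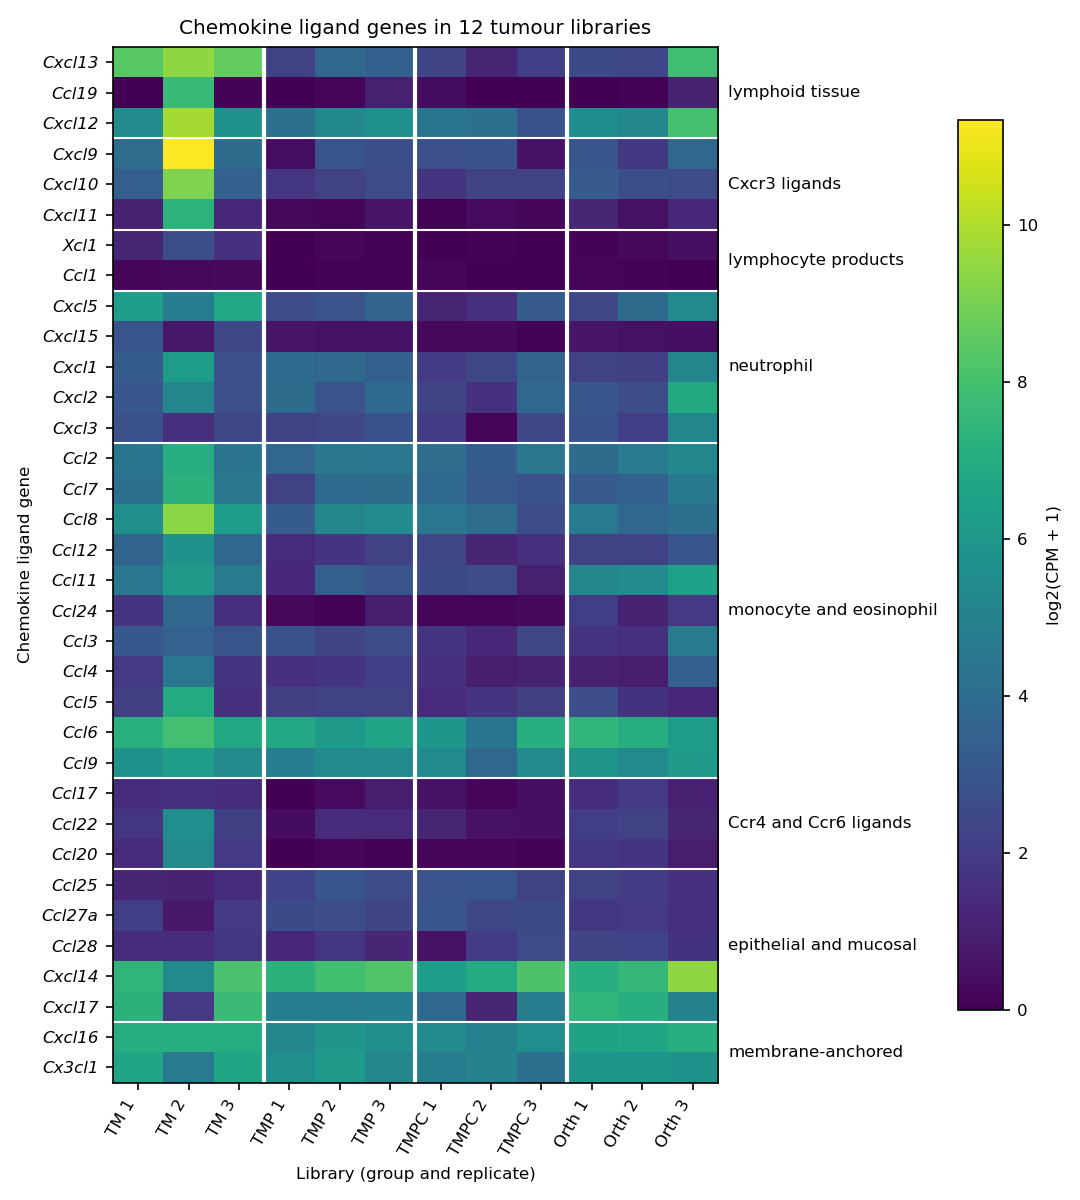
Level of the 34 chemokine ligand genes with any count, as log2(CPM + 1) by colour, in 12 libraries (columns; Orth is orthotopic TMPC), grouped by role. TM replicate 2 is bright for Cxcl9, Cxcl10, Cxcl12, Ccl8 and Ccl19, and orthotopic replicate 3 for Cxcl13, Cxcl12, Cxcl2 and Cxcl14.

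Against TM, more chemokine genes were lower than higher in both other subcutaneous groups. In TMP, 1 member was higher (Ccl25) and 11 were lower (Cxcl5, Cxcl9, Cxcl10, Cxcl11, Cxcl13, Cxcl15, Cxcl16, Ccl12, Ccl20, Ccl24 and Xcl1) of the 32 that passed the filter, by edgeR's quasi-likelihood test at an adjusted p under 0.05. Of all genes tested 14.3% were called higher and 13.4% lower. In TMPC the same Ccl25 was higher and 19 were lower, the 11 genes above and Ccl3, Ccl4, Ccl7, Ccl8, Ccl11, Ccl22, Cxcl12 and Cx3cl1, where 18.0% of all genes were called higher and 17.8% lower. The median log2 fold change of the 32 was -2.42 in TMP and -3.08 in TMPC, against -0.07 and -0.07 over all genes tested. These comparisons share the TM libraries.

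Without TM replicate 2 the count was 1 higher and 10 lower in TMP, and 1 higher and 16 lower in TMPC. All genes then stood at 16.0% and 15.1% for TMP, and at 20.7% and 20.1% for TMPC. The median of the members moved to -1.04 and -1.74. Cxcl17 joined the lower calls in both, and Cx3cl1 joined them in TMP. Calls in TMP depended on each of its own libraries: 2, 4 and 4 lower calls were left without TMP replicates 1, 2 and 3, where 3.06%, 4.83% and 3.88% of all genes were lower, and the Ccl25 call was lost without replicate 2. In TMPC 8, 8 and 10 lower calls were left without TMPC replicates 1, 2 and 3, against 13.2%, 8.31% and 9.77% of all genes. Over every alternative tried, Cxcl13 and Cxcl16 kept their calls in TMP. Cxcl5, Cxcl13, Cxcl15, Cxcl16, Ccl12, Ccl20, Ccl24, Ccl25 and Xcl1 kept theirs in TMPC. DESeq2 gave an adjusted p for each of these calls. Below, the endings given with a gene are those from left-out libraries. Calls of members that ended in other fits are named in the last section.

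**Figure D2:**
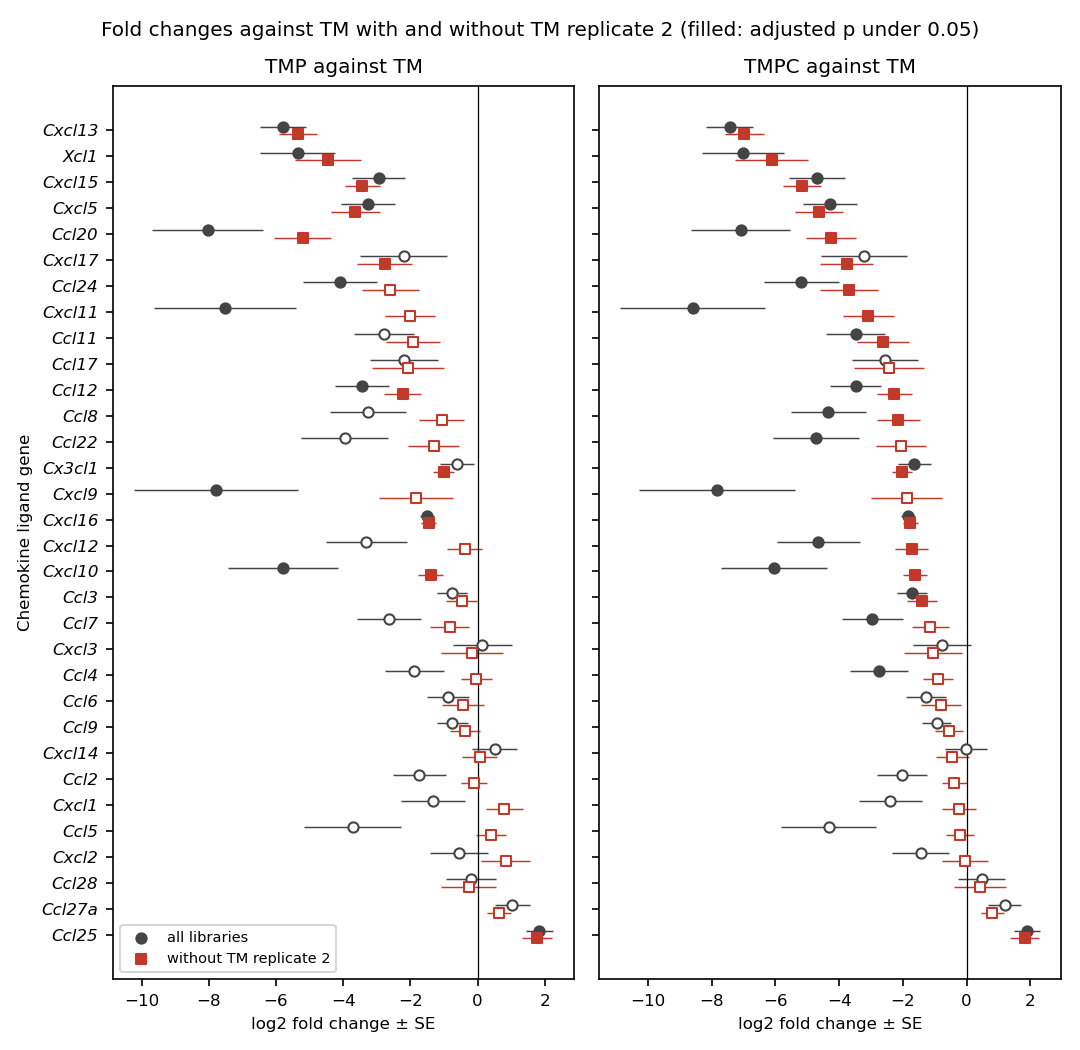
Log2 fold change ± SE of the 32 tested members in TMP against TM (left) and TMPC against TM (right), with all libraries (grey circles) and without TM replicate 2 (red squares), filled where the adjusted p is under 0.05. Cxcl9, Cxcl10 and Cxcl11 move most between the fits, whereas Cxcl13, Cxcl16 and Ccl25 stay nearly in place.

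With all libraries Cxcl13, the follicular ligand of Cxcr5, fell furthest in TMP and TMPC among members whose call held in every setting. In TMPC the log2 fold changes of Ccl20 (-7.09 ± 1.55 (SE)) and Xcl1 (-7.02 ± 1.29 (SE)) were close to that of Cxcl13. Cxcl13 stood at 335, 694 and 390.0 CPM in TM, 3.63, 12.6 and 10.4 in TMP, 4.15, 1.23 and 3.30 in TMPC and 4.85, 4.26 and 229 in orthotopic TMPC. All TM libraries were above all 9 others, and among the others orthotopic replicate 3 stood alone far above the rest. The log2 fold change was -5.79 ± 0.67 (SE), edgeR adjusted p = 0.00216 in TMP and -7.44 ± 0.73 (SE), edgeR adjusted p = 0.000689 in TMPC, and -5.34 and -6.98 without TM replicate 2. The gene lies at chr5:95956951-95961068 (mm10, plus strand). Its receptor Cxcr5 was at 1.65, 51.4 and 2.38 CPM in TM and between 0.819 and 3.40 in the 9 others, so that the receptor was high in TM replicate 2 alone while the ligand was high in all 3. The B cell markers summed to 11.6, 498 and 8.06 CPM in TM, 0.714 to 1.52 in TMP and 0.155 to 1.46 in TMPC, with 4 of 4 markers detected in TM, and their part in the Cxcl13 result was not tested. Mesothelial markers summed to 922, 1.54 and 701 CPM in TM. Fibroblast markers summed to 9014, 2497 and 11405 CPM there, and epithelial markers to 3799, 217 and 4084. The part of these markers in the Cxcl13 result was not tested.

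Ccl19, which with Ccl21 guides cells that carry Ccr7, was at 0, 204 and 0.0916 CPM in TM and at most 1.17 CPM in the 9 other libraries. Of its counts, 3048 came from TM replicate 2, and it was not tested. Cxcl12, the stromal ligand of Cxcr4, was at 42.7, 888 and 50.9 CPM in TM, 17.4, 38.2 and 51.4 in TMP, 19.9, 16.4 and 6.35 in TMPC and 44.3, 36.8 and 249.8 in orthotopic TMPC. TMP overlapped TM, whereas every TMPC library was below every TM library and below every orthotopic one. Cxcl12 fell in TMPC against TM (log2 fold change -4.66 ± 1.30 (SE), edgeR adjusted p = 0.0255), and by much less without TM replicate 2 (-1.72 ± 0.52 (SE), edgeR adjusted p = 0.0314). In TMP its value was -3.31 ± 1.22 (SE), edgeR adjusted p = 0.0750. The TMPC call ended without TMPC replicates 1, 2 or 3 (0.0591, 0.0792 and 0.0827) (adjusted p in brackets). Cxcr4 was at 26.9, 64.0 and 30.7 CPM in TM, 16.0, 20.6 and 16.5 in TMP, 17.9, 14.9 and 11.8 in TMPC and 24.0, 18.8 and 39.9 in orthotopic TMPC and fell in TMP (-1.26 ± 0.38 (SE), edgeR adjusted p = 0.0402) and TMPC (-1.54 ± 0.38 (SE), edgeR adjusted p = 0.0165). Cxcr4 was, without TM replicate 2, at -0.70 in TMP and -0.96 in TMPC. Cxcr4 lost its TMP call without TM replicate 2 (0.0541), TMP replicates 1, 2 or 3 (0.122, 0.0784 and 0.115) and TMPC replicates 2 or 3 (0.0580 and 0.0532) and its TMPC call without TMPC replicates 2 or 3 (0.0531 and 0.0592). Ackr3, which scavenges Cxcl12, was at 45.7 to 80.8 CPM in TM, 56.6 to 79.3 in TMP and 22.0 to 56.2 in TMPC and passed in neither comparison.

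Cxcl9, Cxcl10 and Cxcl11 are the ligands of Cxcr3 that interferon gamma induces, and recruit T and NK cells. Interferon factors and NF-kB are known to switch on such genes, so the 220 bases before the RefSeq start (GRCm38.p6) are shown for Cxcl9 and Cxcl10, and for the neutrophil ligands Cxcl1, Cxcl2 and Cxcl3 described below, whose windows hold a match to a motif of these factors. Capitals mark a match on either strand to the core of the interferon-stimulated response element, GAAANNGAA, or to the kB motif, GGANNTTCC. The windows are chr5:92328080-92328299 (minus strand) for Cxcl9, chr5:92348890-92349109 (minus strand) for Cxcl10, chr5:90891025-90891244 (plus strand) for Cxcl1, chr5:90903679-90903898 (plus strand) for Cxcl2 and chr5:90785881-90786100 (plus strand) for Cxcl3, each printed 5′ to 3′ on its gene's strand.
Cxcl9: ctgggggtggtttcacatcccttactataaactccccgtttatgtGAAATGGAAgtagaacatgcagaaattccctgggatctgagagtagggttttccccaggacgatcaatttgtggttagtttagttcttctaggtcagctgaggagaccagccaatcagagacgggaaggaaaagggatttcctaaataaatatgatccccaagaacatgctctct
Cxcl10: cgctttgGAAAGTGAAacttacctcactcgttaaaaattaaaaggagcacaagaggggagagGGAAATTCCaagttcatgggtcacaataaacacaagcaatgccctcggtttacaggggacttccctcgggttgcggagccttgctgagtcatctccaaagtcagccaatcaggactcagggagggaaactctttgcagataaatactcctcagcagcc
Cxcl1: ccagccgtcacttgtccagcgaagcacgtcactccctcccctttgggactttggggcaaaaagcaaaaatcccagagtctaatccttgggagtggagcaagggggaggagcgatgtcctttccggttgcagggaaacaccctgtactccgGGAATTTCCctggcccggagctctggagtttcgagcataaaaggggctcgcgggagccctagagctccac
Cxcl2: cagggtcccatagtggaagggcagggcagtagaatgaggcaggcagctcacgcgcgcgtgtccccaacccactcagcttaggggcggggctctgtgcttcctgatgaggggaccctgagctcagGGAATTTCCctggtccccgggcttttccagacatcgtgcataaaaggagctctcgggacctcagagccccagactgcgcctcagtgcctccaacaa
Cxcl3: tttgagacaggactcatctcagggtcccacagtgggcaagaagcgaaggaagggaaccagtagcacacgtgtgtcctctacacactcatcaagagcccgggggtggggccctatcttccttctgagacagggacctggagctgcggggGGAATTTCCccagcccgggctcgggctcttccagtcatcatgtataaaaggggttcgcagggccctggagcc
The interferon element starts 175 bases before the Cxcl9 start and 213 before the Cxcl10 start, and Cxcl10 also has a kB match at 158 bases. The kB match GGAATTTCC starts 70, 96 and 72 bases before the starts of Cxcl1, Cxcl2 and Cxcl3. Over windows of 250 bases before to 50 after the start, the interferon element was found in 6 of the 27 members' windows (22.2%) against 8.57% of all 27025 windows. The kB motif was found in 6 of the 27 members' windows (22.2%) against 4.24% of all 27025 windows, and the gamma-activated site TTCNNNGAA in 2 of the 27 members' windows (7.41%) against 8.47% of all 27025 windows. Besides the genes shown, Ccl1, Ccl3, Ccl19 and Cxcl14 held the interferon element, and Ccl1 and Ccl12 held the kB motif. The window of Cxcl15, also a neutrophil ligand, held no match. Cxcl5 and Cxcl11 had no window and were not searched. Not every RefSeq start lay at the start of the gene in the GENCODE annotation. The Ccl21b window ended at chr4:42173119 and that of Ccl27b at chr4:42650562, before GENCODE starts at 42255767 and 42655251. The Ccl1 window lay inside the GENCODE gene. These windows were kept among the 27. No match overlapped a match to another motif in a member's window. A match describes the letters and is not evidence of binding. Looser forms of the motifs were not searched, so unmarked bases may hold them.

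All 3 Cxcr3 ligands were lower in TMP and TMPC, and the size of the difference depended on TM replicate 2. Cxcl9 stood at 15.5, 2581 and 15.3 CPM in TM, 0.357, 6.80 and 5.64 in TMP, 5.85, 6.31 and 0.464 in TMPC and 7.12, 2.63 and 12.6 in orthotopic TMPC. Cxcl10 stood at 9.85, 558 and 9.99 CPM in TM, 2.50, 3.75 and 4.94 in TMP, 2.40, 3.58 and 3.66 in TMPC and 8.50, 5.61 and 5.30 in orthotopic TMPC. Cxcl11 stood at 1.12, 157 and 1.42 CPM in TM, 0.178, 0.163 and 0.564 in TMP, 0.0585, 0.267 and 0.103 in TMPC and 1.33, 0.407 and 1.51 in orthotopic TMPC. For each gene TM replicates 1 and 3 were close to each other and above all TMP and TMPC libraries, and TM replicate 2 was far above both. In TMP the log2 fold change of Cxcl9 was -7.78 ± 2.45 (SE), edgeR adjusted p = 0.0470, that of Cxcl10 was -5.80 ± 1.64 (SE), edgeR adjusted p = 0.0336 and that of Cxcl11 was -7.52 ± 2.12 (SE), edgeR adjusted p = 0.0333. In TMPC Cxcl9 was at -7.83 ± 2.46 (SE), edgeR adjusted p = 0.0382, Cxcl10 at -6.04 ± 1.66 (SE), edgeR adjusted p = 0.0244 and Cxcl11 at -8.60 ± 2.27 (SE), edgeR adjusted p = 0.0209. Without TM replicate 2, Cxcl10 still fell in TMP (-1.40 ± 0.37 (SE), edgeR adjusted p = 0.0254) and TMPC (-1.62 ± 0.38 (SE), edgeR adjusted p = 0.0112), and Cxcl11 in TMPC (-3.08 ± 0.80 (SE), edgeR adjusted p = 0.0175) but not in TMP (-2.02 ± 0.75 (SE), edgeR adjusted p = 0.0729). Cxcl9 then passed in neither, at -1.84 ± 1.11 (SE), edgeR adjusted p = 0.235 in TMP and -1.87 ± 1.11 (SE), edgeR adjusted p = 0.208 in TMPC.

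Leaving out other libraries also ended these calls. In TMP the Cxcl9 call ended without TMP replicates 1, 2 or 3 (0.135, 0.119 and 0.128) and TMPC replicates 1, 2 or 3 (0.0631, 0.0685 and 0.0591), the Cxcl10 call without TMP replicates 1, 2 or 3 (0.118, 0.103 and 0.0968) and TMPC replicates 2 or 3 (0.0528 and 0.0529) and the Cxcl11 call without TMP replicates 1, 2 or 3 (0.117, 0.107 and 0.0900) and TMPC replicates 2 or 3 (0.0506 and 0.0523), with the adjusted p in brackets. In TMPC the Cxcl9 call ended without TMP replicates 2 or 3 (0.0578 and 0.0602) and TMPC replicates 1, 2 or 3 (0.0918, 0.105 and 0.104), the Cxcl10 call without TMPC replicates 1, 2 or 3 (0.0719, 0.0796 and 0.0753) and the Cxcl11 call without TMPC replicates 1, 2 or 3 (0.0641, 0.0651 and 0.0721). Ifng, the inducer, was at 0, 55.2 and 0.275 CPM in TM and at most 0.0558 in the 9 others. Of the interferon gamma signalling list 11 of 12 genes were tested, 8 were lower in TMP and 9 in TMPC, and 0 were higher in either. All genes stood at 13.4% and 17.8% lower. The counts without TM replicate 2 were 5 and 8, where 15.1% and 20.1% of all genes were lower. The smallest adjusted p-values in TMPC belonged to Irf9 (-2.31, adjusted p = 0.000849), Ifngr1 (-1.89, adjusted p = 0.00131) and Ifngr2 (-1.11, adjusted p = 0.0163), all log2 fold changes by edgeR. The receptor Cxcr3 was at 4.42, 20.3 and 4.67 CPM in TM, 0, 0.326 and 0.235 in TMP, 0.234, 0.107 and 0 in TMPC and 0.178, 0.226 and 1.67 in orthotopic TMPC and fell in TMP (-5.72 ± 1.29 (SE), edgeR adjusted p = 0.0166) and TMPC (-6.48 ± 1.36 (SE), edgeR adjusted p = 0.00914). Cxcr3 was, without TM replicate 2, at -4.52 in TMP and -5.28 in TMPC. Cxcr3 lost its TMP call without TMP replicates 1, 2 or 3 (0.0520, 0.0504 and 0.0634). T cell markers summed to 8.09, 231 and 12.8 CPM and NK cell markers to 13.8, 269 and 24.9 CPM in TM, against 2.26 to 5.41 and 0.535 to 5.17 in TMP and 1.03 to 6.26 and 1.19 to 2.57 in TMPC, and their part in the result was not tested.

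Xcl1, which NK cells and activated T cells release to attract the dendritic cells that carry Xcr1, was at 1.28, 5.69 and 2.11 CPM in TM, 0, 0.163 and 0.0470 in TMP, 0, 0.0535 and 0 in TMPC and 0.0890, 0.181 and 0.390 in orthotopic TMPC. All TM libraries were above all 9 others. It fell in TMP (log2 fold change -5.36 ± 1.12 (SE), edgeR adjusted p = 0.0134) and TMPC (-7.02 ± 1.29 (SE), edgeR adjusted p = 0.00556), and without TM replicate 2 the values were -4.45 and -6.11. TMPC held 1 count in all against 155 in TM, of which 85 were in TM replicate 2. The counts themselves give a ratio of TM to TMPC of 154 (95% exact interval 27.2 to 6113). The TMP call ended without TMP replicates 1 or 3 (0.0512 and 0.0605), its value was -6.55 (adjusted p = 0.0306) without TMP replicate 2, and without TMPC replicate 2, the library with that count, the TMPC value moved to -8.81 (adjusted p = 0.0230). Xcr1 was at 1.81, 27.2 and 2.79 CPM in TM, 0, 0.544 and 0.423 in TMP, 0.293, 0.107 and 0.155 in TMPC and 0.845, 0.815 and 0.279 in orthotopic TMPC and was lower in TMP (-5.09 ± 1.42 (SE), edgeR adjusted p = 0.0327) and TMPC (-5.93 ± 1.50 (SE), edgeR adjusted p = 0.0183). Xcr1 was, without TM replicate 2, at -2.79 in TMP and -3.61 in TMPC. Xcr1 lost its TMP call without TM replicate 2 (0.0566), TMP replicates 1, 2 or 3 (0.0811, 0.0822 and 0.0961) and TMPC replicates 2 or 3 (0.0506 and 0.0519) and its TMPC call without TMPC replicates 2 or 3 (0.0696 and 0.0655). Ccl5, which T and NK cells produce, was at 3.46, 126 and 2.06 CPM in TM, 3.45, 3.75 and 3.62 in TMP, 1.52, 2.25 and 3.41 in TMPC and 5.43, 2.17 and 1.45 in orthotopic TMPC. Outside TM replicate 2 its libraries lay within 1.45 to 5.43 CPM. The log2 fold change was -3.72 ± 1.44 (SE), edgeR adjusted p = 0.0857 in TMP and -4.33 ± 1.48 (SE), edgeR adjusted p = 0.0516 in TMPC, and 0.40 and -0.20 without that library, so the direction in TMP turned.

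The neutrophil ligands did not move as a block. Cxcl1, Cxcl2, Cxcl3 and Cxcl5 act through Cxcr2, and Cxcl15 is a further neutrophil attractant of the mouse first described in lung. Cxcl5 stood at 77.7, 25.8 and 111 CPM in TM, 4.94, 6.42 and 11.2 in TMP, 1.23, 1.87 and 8.21 in TMPC and 4.36, 14.2 and 41.9 in orthotopic TMPC. Every TM library was above every TMP and TMPC library, and orthotopic replicate 3 fell within the TM range. Its log2 fold change was -3.26 ± 0.81 (SE), edgeR adjusted p = 0.0221 in TMP and -4.28 ± 0.85 (SE), edgeR adjusted p = 0.00750 in TMPC, and -3.64 and -4.63 without TM replicate 2. Cxcl15 stood at 6.60, 0.669 and 4.35 CPM in TM, 0.595, 0.435 and 0.470 in TMP, 0.176, 0.214 and 0.0516 in TMPC and 0.623, 0.407 and 0.390 in orthotopic TMPC. TM replicate 2 was the lowest TM library for both genes, and for Cxcl15 it was only just above the highest TMP library. Cxcl15 fell in TMP (-2.95 ± 0.80 (SE), edgeR adjusted p = 0.0300) and TMPC (-4.69 ± 0.89 (SE), edgeR adjusted p = 0.00641), and without TM replicate 2 the values were -3.43 and -5.17. The TMP call of Cxcl5 ended without TM replicate 3 (0.0519) and TMP replicates 1, 2 or 3 (0.0923, 0.0820 and 0.0561), and that of Cxcl15 without TM replicates 1 or 3 (0.0866 and 0.0603) and TMP replicates 1, 2 or 3 (0.0986, 0.104 and 0.101), with adjusted p in brackets. In TMPC the Cxcl5 value was -5.52 (adjusted p = 0.00565) without TMPC replicate 3, and the Cxcl15 value was -4.06 (adjusted p = 0.0179) without TM replicate 1.

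Cxcl1 was at 8.84, 74.3 and 5.77 CPM in TM, 14.6, 13.1 and 10.2 in TMP, 2.98, 4.39 and 11.0 in TMPC and 3.51, 3.40 and 34.4 in orthotopic TMPC, Cxcl2 at 7.35, 34.9 and 5.77 CPM in TM, 14.9, 6.36 and 13.6 in TMP, 3.98, 2.09 and 13.0 in TMPC and 7.16, 5.43 and 118 in orthotopic TMPC, and Cxcl3 at 6.12, 1.94 and 4.54 CPM in TM, 3.51, 4.41 and 6.21 in TMP, 3.10, 0.160 and 4.39 in TMPC and 6.18, 3.26 and 35.6 in orthotopic TMPC. Cxcl1 and Cxcl2 had their highest subcutaneous value in TM replicate 2, where Cxcl3 was lower than in the other TM libraries, and all 3 were high in orthotopic replicate 3. None passed against TM. In TMP the log2 fold changes were -1.33 ± 0.96 (SE), edgeR adjusted p = 0.319 for Cxcl1, -0.55 ± 0.88 (SE), edgeR adjusted p = 0.661 for Cxcl2 and 0.15 ± 0.89 (SE), edgeR adjusted p = 0.914 for Cxcl3. The values without TM replicate 2 were 0.80, 0.83 and -0.17, each with the opposite sign. In TMPC they were -2.39 ± 0.99 (SE), edgeR adjusted p = 0.0916 for Cxcl1, -1.44 ± 0.89 (SE), edgeR adjusted p = 0.233 for Cxcl2 and -0.77 ± 0.90 (SE), edgeR adjusted p = 0.529 for Cxcl3. The receptor Cxcr2 was at 5.38, 167 and 9.07 CPM in TM, 1.37, 1.96 and 2.21 in TMP, 1.11, 0.642 and 1.75 in TMPC and 1.07, 1.22 and 27.0 in orthotopic TMPC and fell in TMP (-5.14 ± 1.35 (SE), edgeR adjusted p = 0.0269) and TMPC (-5.82 ± 1.41 (SE), edgeR adjusted p = 0.0154). Cxcr2 was, without TM replicate 2, at -1.96 in TMP and -2.62 in TMPC. Cxcr2 lost its TMP call without TMP replicates 1, 2 or 3 (0.1002, 0.0861 and 0.0849) and its TMPC call without TMPC replicate 2 (0.0601). Neutrophil markers summed to 119, 3474 and 185 CPM in TM, 23.6 to 45.3 in TMP, 8.98 to 34.5 in TMPC and 28.6, 28.1 and 805 in orthotopic TMPC, with 7 of 7 detected in TM. Their part in these results was not tested. Ppbp and Pf4, the platelet members of the CXC family under other names, passed in neither comparison against TM.

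Among the monocyte attractants, Ccl12 fell in both groups, and Ccl7 and Ccl8 in TMPC, while Ccl2 did not pass. In the mouse Ccl2, Ccl7 and Ccl12 draw monocytes through Ccr2, and mouse Ccl8 is a ligand of Ccr8. Ccl12 stood at 11.7, 54.8 and 12.7 CPM in TM, 1.61, 2.39 and 3.72 in TMP, 4.39, 1.34 and 1.91 in TMPC and 3.69, 3.58 and 7.08 in orthotopic TMPC. All TM libraries were above the 9 others. Its log2 fold change was -3.44 ± 0.80 (SE), edgeR adjusted p = 0.0181 in TMP and -3.48 ± 0.80 (SE), edgeR adjusted p = 0.0128 in TMPC, and -2.23 and -2.27 without TM replicate 2. The TMP call ended without TMP replicates 1 or 2 (0.0740 and 0.0644).

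Ccl8 stood at 49.4, 652 and 73.2 CPM in TM, 8.80, 35.1 and 43.1 in TMP, 20.7, 15.7 and 5.47 in TMPC and 23.5, 13.3 and 16.4 in orthotopic TMPC, and Ccl7 at 17.2, 155 and 22.5 CPM in TM, 3.63, 14.6 and 15.0 in TMP, 13.5, 7.92 and 5.93 in TMPC and 8.67, 10.1 and 22.9 in orthotopic TMPC. Every TMPC library was below every TM library for both genes, and so was every TMP library, though TMP replicate 3 came close to the lowest TM value. Ccl8 fell in TMPC (-4.33 ± 1.18 (SE), edgeR adjusted p = 0.0238) and was at -3.25 ± 1.12 (SE), edgeR adjusted p = 0.0622 in TMP. Ccl7 fell in TMPC (-2.95 ± 0.96 (SE), edgeR adjusted p = 0.0440) and was at -2.64 ± 0.95 (SE), edgeR adjusted p = 0.0706 in TMP. Without TM replicate 2 the TMPC values were -2.14 ± 0.68 (SE), edgeR adjusted p = 0.0366 for Ccl8 and -1.13 ± 0.58 (SE), edgeR adjusted p = 0.148 for Ccl7, which lost its call. The TMPC call of Ccl8 also ended without TMPC replicates 1, 2 or 3 (0.0518, 0.0756 and 0.0760) and that of Ccl7 without TMP replicates 2 or 3 (0.0653 and 0.0643) and TMPC replicates 1, 2 or 3 (0.0723, 0.127 and 0.126). Ccl2 was at 20.4, 133 and 19.6 CPM in TM, 12.2, 22.4 and 20.9 in TMP, 15.8, 8.93 and 21.5 in TMPC and 15.1, 24.0 and 35.6 in orthotopic TMPC, and outside TM replicate 2 its groups overlapped. Its log2 fold change was -1.73 ± 0.79 (SE), edgeR adjusted p = 0.130 in TMP and -2.03 ± 0.79 (SE), edgeR adjusted p = 0.0778 in TMPC. The receptor Ccr2 was at 64.7, 342 and 64.4 CPM in TM, 1.31, 23.4 and 25.6 in TMP, 18.4, 9.20 and 3.46 in TMPC and 20.3, 20.8 and 36.9 in orthotopic TMPC and fell in TMPC (-4.04 ± 1.21 (SE), edgeR adjusted p = 0.0332), with -3.31 ± 1.17 (SE), edgeR adjusted p = 0.0672 in TMP. Ccr2 was, without TM replicate 2, at -1.93 in TMP and -2.65 in TMPC. Ccr2 lost its TMPC call without TM replicate 2 (0.0653), TMP replicate 2 (0.0515) and TMPC replicates 1, 2 or 3 (0.0527, 0.105 and 0.0966). Macrophage and monocyte markers summed to 1911, 4679 and 1968 CPM in TM, 498 to 805 in TMP and 438 to 729 in TMPC, with 10 of 10 detected in TMPC. Their part in the result was not tested.

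Ccl11 and Ccl24 are eotaxins, ligands of the eosinophil receptor Ccr3. Ccl11 stood at 21.2, 69.3 and 23.8 CPM in TM, 1.37, 9.63 and 6.54 in TMP, 4.62, 5.29 and 0.981 in TMPC and 34.5, 43.9 and 88.6 in orthotopic TMPC. Ccl24 stood at 2.40, 12.7 and 1.97 CPM in TM, 0.178, 0.0544 and 0.800 in TMP, 0.117, 0.160 and 0.206 in TMPC and 3.29, 1.13 and 2.73 in orthotopic TMPC. For both genes every TMP and TMPC library was below every TM library and below every orthotopic library. Ccl24 fell in TMP (-4.09 ± 1.10 (SE), edgeR adjusted p = 0.0291) and TMPC (-5.18 ± 1.18 (SE), edgeR adjusted p = 0.0125), and was at -2.60 ± 0.85 (SE), edgeR adjusted p = 0.0502 and -3.70 ± 0.91 (SE), edgeR adjusted p = 0.0144 without TM replicate 2. Ccl11 fell in TMPC (-3.48 ± 0.92 (SE), edgeR adjusted p = 0.0212) and was at -2.77 ± 0.89 (SE), edgeR adjusted p = 0.0503 in TMP, and without TM replicate 2 its TMPC value was -2.63 ± 0.82 (SE), edgeR adjusted p = 0.0341. The TMP call of Ccl24 also ended without TMP replicates 1 or 2 (0.108 and 0.0791), while without TMP replicate 3 its value was -5.60 (adjusted p = 0.0354). The TMPC call of Ccl11 ended without TMPC replicates 1, 2 or 3 (0.0507, 0.0529 and 0.0565).

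Ccl3 and Ccl4, which macrophages and lymphocytes release, fell in TMPC and did not pass in TMP. Ccl3 was at 7.72, 11.0 and 6.60 CPM in TM, 6.24, 4.13 and 5.03 in TMP, 2.28, 1.50 and 4.33 in TMPC and 2.40, 2.08 and 25.0 in orthotopic TMPC, and Ccl4 at 2.82, 20.9 and 2.38 CPM in TM, 1.96, 2.34 and 3.25 in TMP, 2.11, 0.963 and 1.14 in TMPC and 1.07, 0.860 and 10.1 in orthotopic TMPC. For Ccl3 every TMPC library was below every TM library, and the TMP range reached up towards TM. In TMPC Ccl3 was at -1.71 ± 0.46 (SE), edgeR adjusted p = 0.0230 and Ccl4 at -2.75 ± 0.90 (SE), edgeR adjusted p = 0.0449. In TMP the values were -0.77 ± 0.45 (SE), edgeR adjusted p = 0.230 and -1.88 ± 0.87 (SE), edgeR adjusted p = 0.138. The TMPC values without TM replicate 2 were -1.40 ± 0.46 (SE), edgeR adjusted p = 0.0409 for Ccl3 and -0.90 ± 0.47 (SE), edgeR adjusted p = 0.158 for Ccl4. The Ccl3 call in TMPC ended without TMPC replicates 1 or 2 (0.0667 and 0.0729), and the Ccl4 call also without TMP replicates 1, 2 or 3 (0.0686, 0.0701 and 0.0674) and TMPC replicates 1, 2 or 3 (0.0681, 0.135 and 0.124).

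Ccl6 and Ccl9, CC chemokines of mouse myeloid cells that bind Ccr1, passed in no comparison. Ccl6 was at 145, 247 and 109 CPM in TM, 115, 68.1 and 98.2 in TMP, 61.0, 20.1 and 138 in TMPC and 177, 133 and 75.9 in orthotopic TMPC, and Ccl9 at 54.1, 81.0 and 39.4 CPM in TM, 27.4, 39.4 and 41.3 in TMP, 41.2, 13.4 and 41.9 in TMPC and 58.2, 42.5 and 67.1 in orthotopic TMPC. Their subcutaneous groups overlapped, while for Ccl9 every orthotopic library was above every subcutaneous TMPC library. In TMPC the log2 fold change was -1.28 ± 0.63 (SE), edgeR adjusted p = 0.142 for Ccl6 and -0.94 ± 0.46 (SE), edgeR adjusted p = 0.139 for Ccl9. The receptor Ccr1 was at 11.7, 175 and 17.0 CPM in TM, 14.9, 21.0 and 25.0 in TMP, 16.5, 11.4 and 22.3 in TMPC and 27.8, 22.4 and 61.0 in orthotopic TMPC and passed in neither comparison against TM.

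Ccl20, the ligand of Ccr6, was close to 0 in TMP and TMPC. It stood at 1.54, 39.1 and 2.84 CPM in TM, 0, 0.109 and 0.0470 in TMP, 0.117, 0.160 and 0.0516 in TMPC and 2.58, 2.40 and 0.837 in orthotopic TMPC. All TM and all orthotopic libraries were above all 6 TMP and TMPC libraries. The highest value was in TM replicate 2, where epithelial markers summed to 217 CPM against 3799 and 4084 in the other TM libraries. TMP held 3 counts in all against 675 in TM, of which 584 were in TM replicate 2. The ratio of TM to TMP was 228 (95% exact interval 77.8 to 1111), an interval that covers counting error only. The log2 fold change was -8.03 ± 1.65 (SE), edgeR adjusted p = 0.0124 in TMP and -7.09 ± 1.55 (SE), edgeR adjusted p = 0.0106 in TMPC, and -5.21 ± 0.86 (SE), edgeR adjusted p = 0.00473 and -4.25 ± 0.79 (SE), edgeR adjusted p = 0.00477 without TM replicate 2. The TMP call ended without TMP replicates 1 or 3 (0.0523 and 0.0525), and without TMP replicate 2 the value was -8.80 (adjusted p = 0.0400). Ccr6 was at 1.33, 20.7 and 0.596 CPM in TM, 0, 0 and 0.282 in TMP, 0.0585, 0.0535 and 0.206 in TMPC and 0.267, 0.0453 and 0.390 in orthotopic TMPC, and fell in TMP (-6.25 ± 1.81 (SE), edgeR adjusted p = 0.0367) and TMPC (-6.18 ± 1.81 (SE), edgeR adjusted p = 0.0302). Ccr6 was, without TM replicate 2, at -3.16 in TMP and -3.08 in TMPC. Ccr6 lost its TMP call without TM replicate 2 (0.0768), TMP replicates 1, 2 or 3 (0.118, 0.107 and 0.0648) and TMPC replicates 2 or 3 (0.0562 and 0.0536) and its TMPC call without TM replicate 2 (0.0712) and TMPC replicates 1, 2 or 3 (0.0849, 0.103 and 0.0725). Without TMP replicate 3, the TMP library with its counts, the TMP value was -10.18 (adjusted p = 0.0648).

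Ccl17 and Ccl22, which dendritic cells and macrophages make for T cells with Ccr4, lie side by side with Cx3cl1 on chromosome 8. Ccl22 stood at 2.50, 45.5 and 3.39 CPM in TM, 0.297, 1.69 and 1.55 in TMP, 1.29, 0.481 and 0.361 in TMPC and 3.25, 3.58 and 1.23 in orthotopic TMPC, and Ccl17 at 1.70, 1.94 and 1.70 CPM in TM, 0, 0.272 and 0.894 in TMP, 0.468, 0.107 and 0.361 in TMPC and 1.78, 2.81 and 1.00 in orthotopic TMPC. Every TMP and TMPC library was below every TM library for both genes. Ccl22 fell in TMPC (-4.72 ± 1.35 (SE), edgeR adjusted p = 0.0282), was at -3.95 ± 1.30 (SE), edgeR adjusted p = 0.0531 in TMP, and lost the TMPC call without TM replicate 2 (-2.06 ± 0.78 (SE), edgeR adjusted p = 0.0670). The call also ended without TMPC replicates 1, 2 or 3 (0.0502, 0.0961 and 0.0903), and without TMPC replicate 1 the value was -5.33 (adjusted p = 0.0502). Ccl17, at -2.19 ± 1.02 (SE), edgeR adjusted p = 0.139 in TMP and -2.56 ± 1.05 (SE), edgeR adjusted p = 0.0878 in TMPC, did not pass. Dendritic cell markers summed to 54.6, 228 and 44.1 CPM in TM, 11.1 to 52.6 in TMP and 13.6 to 26.2 in TMPC, and their part in the result was not tested. Ccr4 stayed between 0 and 0.401 CPM and was not tested.

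Ccl25, known from small intestine and thymus as the ligand of Ccr9, was the member that rose. It stood at 1.33, 1.20 and 1.83 CPM in TM, 3.81, 7.18 and 5.13 in TMP, 6.55, 6.63 and 3.72 in TMPC and 3.78, 2.99 and 2.06 in orthotopic TMPC. All TMP and TMPC libraries were above all TM libraries. The log2 fold change was 1.84 ± 0.41 (SE), edgeR adjusted p = 0.0159 in TMP and 1.89 ± 0.41 (SE), edgeR adjusted p = 0.0105 in TMPC, and 1.77 and 1.82 without TM replicate 2. The TMP call ended without TMP replicate 2 (0.0563). Ccl25 shares exon sequence with Elavl1 on the opposite strand, so part of its reads may belong to that gene. Ccl27a, a skin chemokine for cells with Ccr10, was at 3.35, 0.736 and 2.84 CPM in TM, 4.82, 5.38 and 4.23 in TMP, 7.25, 4.44 and 4.70 in TMPC and 2.58, 2.81 and 2.01 in orthotopic TMPC, likewise higher in every TMP and TMPC library than in any TM library, but did not pass, at 1.04 ± 0.52 (SE), edgeR adjusted p = 0.163 in TMP and 1.20 ± 0.52 (SE), edgeR adjusted p = 0.103 in TMPC. It overlaps Il11ra1. Ccl28, the mucosal ligand of Ccr10, was at 1.70, 1.67 and 2.57 CPM in TM, 1.43, 2.56 and 1.32 in TMP, 0.468, 3.05 and 5.06 in TMPC and 4.09, 3.85 and 2.12 in orthotopic TMPC, with overlapping groups and no call. Ccr9 was at most 0.781 CPM in the 9 libraries outside TM, and Ccr10 at most 1.40 CPM, so neither was tested.

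Cxcl17, the mucosal chemokine, and Cxcl14, of epithelium and fibroblasts, led several libraries per kb (above). Cxcl17 stood at 156, 2.68 and 212 CPM in TM, 26.2, 25.8 and 28.8 in TMP, 12.8, 1.34 and 26.6 in TMPC and 173, 137 and 32.5 in orthotopic TMPC. TM replicate 2 and TMPC replicate 2 were the lowest libraries, and the TMP libraries lay within 25.8 to 28.8 CPM. With all libraries its log2 fold change was -2.20 ± 1.29 (SE), edgeR adjusted p = 0.228 in TMP and -3.21 ± 1.35 (SE), edgeR adjusted p = 0.0942 in TMPC. It fell, once TM replicate 2 was left out, in TMP (-2.76 ± 0.81 (SE), edgeR adjusted p = 0.0352) and TMPC (-3.76 ± 0.84 (SE), edgeR adjusted p = 0.00975). The epithelial markers summed to 3799, 217 and 4084 CPM in TM, 2469.9 to 3677 in TMP and 942 to 3102 in TMPC, and their part in the result was not tested. Cxcl14 stood at 172, 40.1 and 273 CPM in TM, 153, 238 and 306 in TMP, 81.7, 121 and 287 in TMPC and 139.6, 187 and 700.1 in orthotopic TMPC, with overlapping groups, and did not pass in TMP (0.51 ± 0.67 (SE), edgeR adjusted p = 0.590) or in TMPC.

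Cxcl16 and Cx3cl1 are made as membrane proteins with a chemokine domain on a mucin stalk, and are released by the proteases Adam10 and Adam17. Cxcl16 stood at 135, 133 and 130.4 CPM in TM, 37.3, 59.4 and 47.8 in TMP, 41.7, 30.3 and 45.5 in TMPC and 90.8, 102 and 141 in orthotopic TMPC. The TM libraries differed by under 5 CPM from each other, TM replicate 2 included, and all were above all TMP and TMPC libraries. Its log2 fold change was -1.50 ± 0.21 (SE), edgeR adjusted p = 0.00369 in TMP and -1.83 ± 0.22 (SE), edgeR adjusted p = 0.00114 in TMPC, and -1.45 and -1.76 without TM replicate 2. Cx3cl1 stood at 104, 24.7 and 99.7 CPM in TM, 49.1, 66.3 and 35.2 in TMP, 27.0, 31.3 and 16.8 in TMPC and 60.8, 61.1 and 55.5 in orthotopic TMPC. TM replicate 2 was low, below all TMP libraries. Cx3cl1 fell in TMPC (-1.64 ± 0.51 (SE), edgeR adjusted p = 0.0370), and without TM replicate 2 in TMP (-1.01 ± 0.31 (SE), edgeR adjusted p = 0.0406) and TMPC (-2.02 ± 0.31 (SE), edgeR adjusted p = 0.00233), while with all libraries it was at -0.61 ± 0.50 (SE), edgeR adjusted p = 0.381 in TMP. The TMPC call of Cx3cl1 ended without TM replicates 1 or 3 (0.113 and 0.0970), TMP replicates 1, 2 or 3 (0.0667, 0.0581 and 0.0522) and TMPC replicates 1, 2 or 3 (0.0879, 0.0817 and 0.118). Cx3cr1, its receptor on monocytes and macrophages, was at 132, 3.55 and 112 CPM in TM, 3.27, 25.2 and 15.2 in TMP, 20.7, 15.1 and 8.51 in TMPC and 29.0, 33.7 and 44.1 in orthotopic TMPC, with -2.50 ± 1.12 (SE), edgeR adjusted p = 0.128 in TMP and -2.51 ± 1.13 (SE), edgeR adjusted p = 0.113 in TMPC. Cxcr6, the receptor of Cxcl16, was at 2.56, 26.7 and 2.20 CPM in TM, 0.476, 2.50 and 3.90 in TMP, 0.527, 1.76 and 1.81 in TMPC and 1.60, 0.996 and 1.34 in orthotopic TMPC and did not pass. Adam10 was at 187 to 256 CPM in TM, 285 to 345 in TMP and 269 to 355 in TMPC, and did not pass either.

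**Figure D3:**
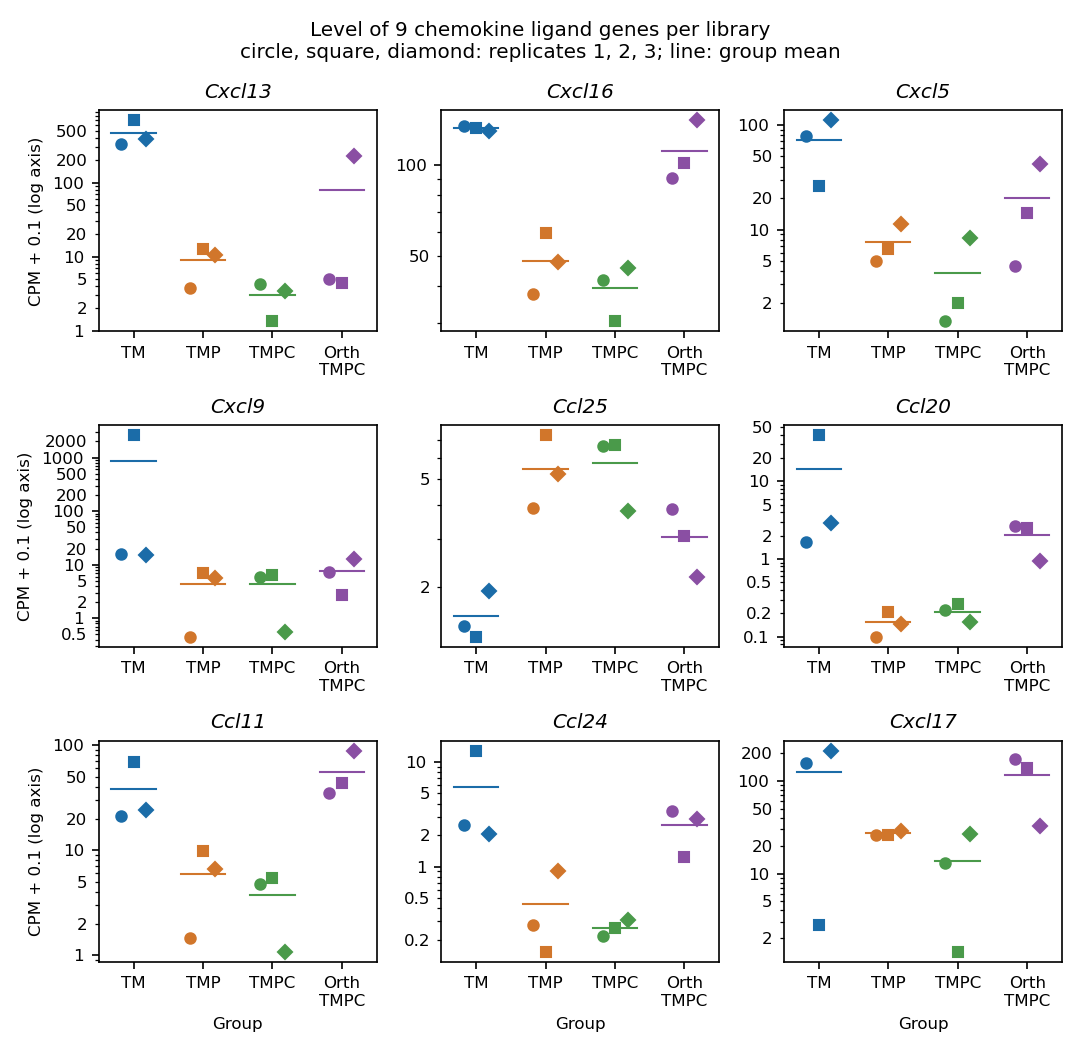
CPM + 0.1 on a log axis for 9 chemokine ligand genes in 4 groups; each point is 1 library (circle, square and diamond for replicates 1, 2 and 3) and each line is a group mean. Cxcl13, Cxcl16, Cxcl5 and Ccl20 lie above all TMP and TMPC libraries in every TM library, Ccl25 lies below them, and Ccl11, Ccl24 and Cxcl16 are higher in every orthotopic than in every subcutaneous TMPC library.

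Between TMPC and TMP no chemokine gene passed. Of the 32 tested, 0 were higher and 0 lower by edgeR, the same share as over all genes (0.0% and 0.0%). DESeq2 also called 0 and 0, where it called 0.0545% of genes higher and 0.0613% lower. At an unadjusted p under 0.05, 0 members were higher and 1 was lower, against 1.37% and 1.67% of all genes. That member was Cxcl13, at -1.65 ± 0.58 (SE), edgeR adjusted p = 1.00, with the ranges of TMP (3.63 to 12.6 CPM) and TMPC (1.23 to 4.15 CPM) overlapping. Cxcl15 was lower in every TMPC than in every TMP library (0.0516 to 0.214 against 0.435 to 0.595 CPM), and so was Cx3cl1 (16.8 to 31.3 against 35.2 to 66.3 CPM), at -1.75 ± 0.86 (SE), edgeR adjusted p = 1.00 and -1.03 ± 0.50 (SE), edgeR adjusted p = 1.00. Ccl5 was likewise lower in every TMPC library (1.52 to 3.41 against 3.45 to 3.75 CPM), at -0.61 ± 1.33 (SE). The share of all genes without overlap between these groups was not counted.

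Orthotopic TMPC tumours had more of 7 chemokine transcripts than subcutaneous TMPC tumours: Cxcl16, Ccl24, Ccl20, Ccl11, Cx3cl1, Ccl17 and Cxcl12. Among the 29 tested, 0 were lower, at an edgeR adjusted p under 0.05, and of all genes 14.0% were called higher and 13.8% lower. The median log2 fold change of the 29 was 1.29, against 0.05 over all genes tested. Without orthotopic replicate 3 there were 8 higher and 0 lower, where all genes stood at 16.5% and 14.0%, and the median was 0.68. Cxcl17 and Ccl22 then joined, and Cxcl12 was lost. Without orthotopic replicate 1 there were 4 higher calls, and without replicate 2 there was 1, that of Ccl24, where 4.3% and 1.87% of all genes were higher. DESeq2 called 12 higher and 1 lower, the last being Ccl27a, and it called 20.4% of genes higher and 18.4% lower. Its higher calls were the 7 above and Ccl22, Cxcl5, Cxcl10, Cxcl11 and Cxcl17. The subcutaneous TMPC libraries also enter the comparison with TM, so the lower values there and the higher values here rest in part on the same libraries.

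The eotaxins and their receptor were higher together at the orthotopic site. As given above, Ccl11 was at 34.5, 43.9 and 88.6 CPM in orthotopic against 4.62, 5.29 and 0.981 in subcutaneous TMPC, and Ccl24 at 3.29, 1.13 and 2.73 against 0.117, 0.160 and 0.206. The log2 fold change was 4.00 ± 0.71 (SE), edgeR adjusted p = 0.0143 for Ccl11 and 3.87 ± 0.61 (SE), edgeR adjusted p = 0.0114 for Ccl24, and without orthotopic replicate 3 it was 3.46 and 3.74. Their receptor Ccr3 was at 2.80, 3.31 and 5.41 CPM in orthotopic and 0.0585, 0.0535 and 0 in subcutaneous TMPC (6.54 ± 0.80 (SE), edgeR adjusted p = 0.00872). Each orthotopic library was above each subcutaneous one for all 3 genes. The Ccl11 call ended without orthotopic TMPC replicate 2 (0.0515). Fibroblast markers summed to 4389 to 10567 CPM in orthotopic against 2514 to 3393 in subcutaneous TMPC, and their part in the Ccl11 result was not tested.

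Cxcl16 and Ccl20 were also higher. Cxcl16 was at 90.8, 102 and 141 CPM in orthotopic against 41.7, 30.3 and 45.5 in subcutaneous TMPC (log2 fold change 1.57 ± 0.24 (SE), edgeR adjusted p = 0.0109). Ccl20 was at 2.58, 2.40 and 0.837 against 0.117, 0.160 and 0.0516 CPM (4.12 ± 0.70 (SE), edgeR adjusted p = 0.0132). Neither pair of groups overlapped, and without orthotopic replicate 3 the values were 1.33 and 4.46. Cxcl17 was at 173, 137 and 32.5 against 12.8, 1.34 and 26.6 CPM, which passed without orthotopic replicate 3 (3.54 ± 1.00 (SE), edgeR adjusted p = 0.0444) but not with it (3.11 ± 1.06 (SE), edgeR adjusted p = 0.0678). The Cxcl16 call ended without orthotopic TMPC replicate 2 (0.0511) and the Ccl20 call without orthotopic TMPC replicate 2 (0.0549). Epithelial markers summed to 3968 to 6881 CPM in orthotopic against 942 to 3102 in subcutaneous TMPC, and gastric epithelial markers to 3786 to 6272 against 0.214 to 0.761, with 7 of 7 detected in orthotopic TMPC. Their part in these results was not tested.

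The chromosome 8 neighbours Cx3cl1 and Ccl17 rose as well. Cx3cl1 was at 60.8, 61.1 and 55.5 CPM in orthotopic against 27.0, 31.3 and 16.8 in subcutaneous TMPC (1.29 ± 0.25 (SE), edgeR adjusted p = 0.0166), and its receptor Cx3cr1 at 29.0, 33.7 and 44.1 against 20.7, 15.1 and 8.51 (1.33 ± 0.36 (SE), edgeR adjusted p = 0.0389). Cx3cr1 lost its site call without TMPC replicates 2 or 3 (0.113 and 0.0699) and orthotopic TMPC replicates 1, 2 or 3 (0.0731, 0.0943 and 0.0759). Ccl17 was at 1.78, 2.81 and 1.00 against 0.468, 0.107 and 0.361 CPM (2.62 ± 0.68 (SE), edgeR adjusted p = 0.0342). Ccl22 was at 3.25, 3.58 and 1.23 against 1.29, 0.481 and 0.361 CPM, at 1.97 ± 0.68 (SE), edgeR adjusted p = 0.0697 with all libraries and 2.30 ± 0.64 (SE), edgeR adjusted p = 0.0438 without orthotopic replicate 3. For Ccl22 the lowest orthotopic library was below the highest subcutaneous one, while for Cx3cl1 and Ccl17 the groups did not overlap, and their values without orthotopic replicate 3 were 1.31 and 2.89. The Cx3cl1 call ended without orthotopic TMPC replicates 1 or 2 (0.0568 and 0.0617), and the Ccl17 call without TMPC replicates 1, 2 or 3 (0.0557, 0.101 and 0.0930) and orthotopic TMPC replicates 1 or 2 (0.0902 and 0.110).

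Several ligands were high in orthotopic replicate 3 and not in replicates 1 and 2. Cxcl13 was at 4.85, 4.26 and 229 CPM against 4.15, 1.23 and 3.30 in subcutaneous TMPC, and its log2 fold change of 4.86 ± 1.74 (SE), edgeR adjusted p = 0.0776 became 0.69 ± 0.58 (SE), edgeR adjusted p = 0.405 without replicate 3. Cxcl2 was at 7.16, 5.43 and 118 CPM, Cxcl3 at 6.18, 3.26 and 35.6 and Cxcl1 at 3.51, 3.40 and 34.4, none of which passed. Their values were 2.85 ± 1.37 (SE), edgeR adjusted p = 0.158, 2.63 ± 1.29 (SE), edgeR adjusted p = 0.164 and 1.23 ± 1.05 (SE), edgeR adjusted p = 0.404, and without replicate 3 they were 0.01, 0.92 and -0.81. Ccl3, at 2.40, 2.08 and 25.0 CPM, and Ccl4, at 1.07, 0.860 and 10.1 CPM, had the same pattern and did not pass (1.93 ± 1.08 (SE), edgeR adjusted p = 0.215 and 1.59 ± 1.04 (SE), edgeR adjusted p = 0.282), and both values turned negative without replicate 3 (-0.24 and -0.50). Cxcl12, at 44.3, 36.8 and 249.8 against 19.9, 16.4 and 6.35 CPM, passed with replicate 3 (3.03 ± 0.89 (SE), edgeR adjusted p = 0.0469) and not without it (1.54 ± 0.47 (SE), edgeR adjusted p = 0.0555). That call also ended without TMPC replicates 1, 2 or 3 (0.0826, 0.125 and 0.125) and orthotopic TMPC replicates 1 or 2 (0.0664 and 0.0617). In that library neutrophil markers summed to 805 CPM and liver markers to 7060.3 CPM, and their part in these values was not tested.

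By edgeR, Ccl25 and Ccl27a had no call between sites, nor had Ccl28. DESeq2 called Ccl27a lower (-1.11, DESeq2 adjusted p = 0.0169). Ccl25 was at 3.78, 2.99 and 2.06 CPM in orthotopic against 6.55, 6.63 and 3.72 in subcutaneous TMPC (-0.89 ± 0.42 (SE), edgeR adjusted p = 0.156), and Ccl27a at 2.58, 2.81 and 2.01 against 7.25, 4.44 and 4.70 (-1.09 ± 0.38 (SE), edgeR adjusted p = 0.0734). These were the pair of tested members with a negative value, and every orthotopic library was below every subcutaneous one for Ccl27a. The Cxcr3 ligand Cxcl10 was at 8.50, 5.61 and 5.30 against 2.40, 3.58 and 3.66 CPM, higher in every orthotopic library. It was not past the threshold by edgeR (1.05 ± 0.39 (SE), edgeR adjusted p = 0.0846), but DESeq2 called it (DESeq2 adjusted p = 0.0222). Xcl1 was not tested; it held 13 counts in orthotopic and 1 in subcutaneous TMPC, a ratio of 11.5 (95% exact interval 1.72 to 487).

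Chemokine genes lie in clusters, and neighbours did not always pass the threshold together. On chromosome 5, Cxcl5, Cxcl3 and Cxcl15 follow each other with gaps of 24.5 and 4.93 kb, and the outer pair fell in TMPC against TM while Cxcl3 between them did not pass. Cxcl1 and Cxcl2 follow after 88.2 kb, 10.8 kb apart, and did not pass. Cxcl9, Cxcl10 and Cxcl11, 18.6 and 10.7 kb apart, all fell with all libraries, while without TM replicate 2 Cxcl9 did not pass (-1.87 ± 1.11 (SE), edgeR adjusted p = 0.208). On chromosome 11 Ccl2, Ccl7, Ccl11, Ccl12 and Ccl8 follow each other with gaps of 8.26, 10.3, 38.9 and 11.8 kb, and in TMPC without TM replicate 2 the last 3 passed and the first pair did not. At the orthotopic site Ccl11 was the member of that run that passed. In the second run on chromosome 11, Ccl5, Ccl9, Ccl6, Ccl3 and Ccl4, Ccl3 passed in that fit against TM and none passed between sites. Whether neighbours differed from each other was not tested.

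**Figure D4:**
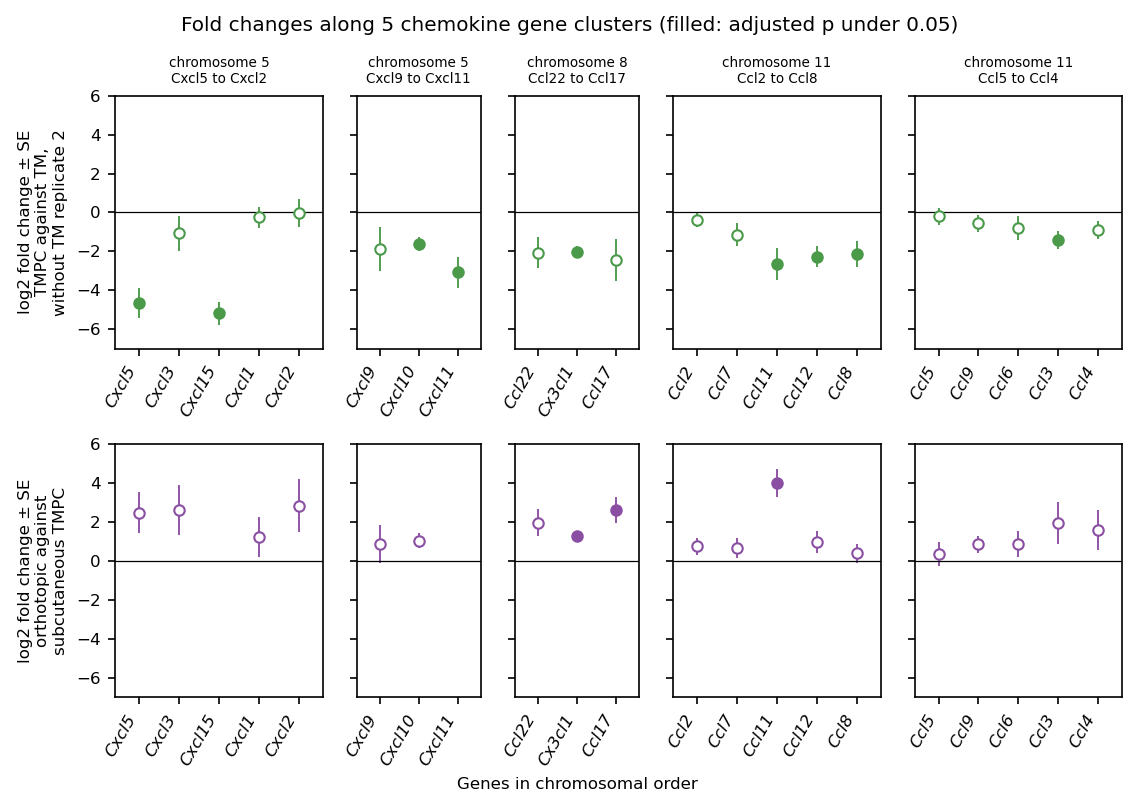
Log2 fold change ± SE along 5 chemokine gene clusters in chromosomal order, for TMPC against TM without TM replicate 2 (top) and orthotopic against subcutaneous TMPC (bottom), filled where the adjusted p is under 0.05; Cxcl15 and Cxcl11 were not tested between sites. Cxcl5 and Cxcl15 lie low in the top row with Cxcl3 between them nearer 0, and Ccl11 stands above its neighbours in the bottom row.

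The receptors and regulators of the pathway were counted from fixed lists. Beside each count against TM stand 13.4% of all genes lower in TMP and 17.8% in TMPC, or 15.1% and 20.1% without TM replicate 2, and between sites 14.0% of all genes higher, or 16.5% without orthotopic replicate 3. Of the 18 chemokine receptors, 6 of 12 tested genes were lower in TMP and 9 in TMPC against TM (3 and 6 without TM replicate 2), and 0 were higher. Between sites 2 of 10 were higher, Ccr3 and Cx3cr1, of which Cx3cr1 lost its call in 7 of 10 alternatives. Of the 5 atypical and scavenging receptors, 2 of 5 tested genes were lower in TMP and 2 in TMPC against TM, namely Ackr1 and Ccrl2 (1 and 2 without TM replicate 2), and 0 were higher between sites. Ccrl2, which binds no chemokine itself but presents chemerin, was at 22.5, 97.2 and 15.9 CPM in TM, 6.13, 4.51 and 5.03 in TMP, 2.93, 2.51 and 5.73 in TMPC and 6.76, 5.16 and 26.4 in orthotopic TMPC and fell in TMP (-3.20 ± 0.74 (SE), edgeR adjusted p = 0.0180) and TMPC (-3.71 ± 0.76 (SE), edgeR adjusted p = 0.00840). Ccrl2 was, without TM replicate 2, at -1.87 in TMP and -2.36 in TMPC. Ccrl2 lost its TMP call without TMP replicates 1, 2 or 3 (0.0633, 0.0640 and 0.0664). Of the inducing cytokines, 5 of 11 tested genes were lower in TMP and 5 in TMPC against TM (3 and 5 without TM replicate 2), and 4 of 9 were higher between sites (5 of 11 without orthotopic replicate 3). The smallest adjusted p-values in TMPC belonged to Il33 (-4.80, adjusted p = 0.00537), Ltb (-6.41, adjusted p = 0.00786) and Tnf (-3.31, adjusted p = 0.0104), and between sites to Il33 (3.47, adjusted p = 0.00864), Il1b (3.63, adjusted p = 0.0282) and Il6 (3.97, adjusted p = 0.0296), given as edgeR log2 fold changes. For Il33, Ltb and Tnf the TMPC values without TM replicate 2 were -3.65, -4.16 and -2.35, and Tnf was at -3.92 (adjusted p = 0.0158) without TMPC replicate 3. For Il1b and Il6 the site values without orthotopic replicate 3 were 2.26 and 2.38. Il1b lost its site call without TMPC replicates 1, 2 or 3 (0.0560, 0.0906 and 0.0862) and orthotopic TMPC replicate 2 (0.0581). Il6 lost its site call without TMPC replicates 1, 2 or 3 (0.0729, 0.0928 and 0.0818) and orthotopic TMPC replicates 1 or 2 (0.0531 and 0.0545). Ltb, a lymphotoxin chain that builds lymphoid tissue, was at 14.4, 163 and 15.1 CPM in TM, 0.238, 1.52 and 1.98 in TMP, 0.995, 0.588 and 0.877 in TMPC and 1.69, 3.44 and 13.1 in orthotopic TMPC, with every TM library above every other and orthotopic replicate 3 next. Il33, an alarmin of epithelium and stroma, was at 98.4, 444 and 111 CPM in TM, 6.78, 26.4 and 25.5 in TMP, 13.7, 6.63 and 4.85 in TMPC and 92.7, 89.1 and 85.5 in orthotopic TMPC, with all TM and orthotopic libraries above all TMP and TMPC libraries.

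Of the NF-kB regulators, 5 of 16 tested genes were lower in TMP and 9 in TMPC against TM (3 and 8 without TM replicate 2), and 5 of 16 were higher between sites (2 of 16 without orthotopic replicate 3, a share below that of all genes, 16.5%). In TMPC the smallest adjusted p-values belonged to Nfkbiz (-2.43, adjusted p = 0.00206), Zc3h12a (-1.56, adjusted p = 0.0105) and Birc3 (-2.94, adjusted p = 0.0117), again as edgeR log2 fold changes, and Birc3 was at -1.79 without TM replicate 2. Nfkbiz, a nuclear partner of NF-kB, was at 137, 118 and 111 CPM in TM, 48.4, 34.6 and 34.4 in TMP, 17.3, 16.4 and 37.4 in TMPC and 67.4, 51.7 and 68.8 in orthotopic TMPC, with every TM library above every other. Of the interferon gamma signalling list 8 of 11 were higher between sites, by edgeR first of all Irf9 (1.54, adjusted p = 0.00872) and Ifngr1 (1.09, adjusted p = 0.00944), and 0 were lower. Of the 10 protease and matrix partners, 2 of 10 tested genes were lower in TMP and 2 in TMPC against TM, and 2 were higher between sites. All genes stood at 13.4% and 17.8% lower and at 14.0% higher, so these shares were near the background. The site counts without orthotopic replicate 3 were 1 higher and 1 lower. Dpp4, the protease that trims the ends of Cxcl9, Cxcl10, Cxcl11 and Cxcl12, was at 23.2, 45.8 and 14.2 CPM in TM, 1.49, 5.55 and 3.29 in TMP, 1.81, 2.30 and 1.39 in TMPC and 2.58, 2.40 and 12.6 in orthotopic TMPC and fell in TMP (-3.07 ± 0.62 (SE), edgeR adjusted p = 0.0118) and TMPC (-4.00 ± 0.65 (SE), edgeR adjusted p = 0.00353). Dpp4 was, without TM replicate 2, at -2.43 in TMP and -3.34 in TMPC. Markers of all leukocytes summed to 821, 3330.2 and 822 CPM in TM, 122 to 267 in TMP, 136 to 213 in TMPC and 287 to 527 in orthotopic TMPC, and their part in these counts was not tested.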

How the data were processed

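Bulk polyA RNA of 12 tumour libraries was sequenced with paired reads of 150 bases. The submitters' processing notes name STAR 2.6.0, the build mm10 and DESeq2. The counter, the annotation and the strand setting are, in the sources used here, not given. The authors deposited whole-number counts per gene in 2 tables, and beside them, per the file headers, a normalized signal (counts over a size factor). Symbols in the table of the 9 subcutaneous libraries stand out of step from entry 12291 on, so symbols were taken by position from the other table. The signal, used for this check only, then matched for 24419 of 24419 genes within 0.01 reads, against 14200 as deposited; of the members this moved 1, Xcl1. No entry lacked a gene (0 entries). The 2 single-cell samples were not analysed here.

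Groups and replicate numbers came from the titles. CPM are counts over effective library size, with TMM factors over the 12 libraries; levels per kb used the longest principal transcript of GENCODE M21. The test was edgeR 4.0.16 (R 4.3.3; glmQLFit, glmQLFTest, TMM, filterByExpr). Benjamini-Hochberg adjustment ran over all genes tested, with a threshold of 0.05. One fit held the 9 subcutaneous libraries, another the 6 TMPC libraries. The SE of a log2 fold change is its size over the square root of F. An exact permutation test of 3 against 3 reaches a two-sided p of 0.1 at best and was not used. The fit was tested on simulated counts with the same spread for all genes and no library that stood apart. That test therefore does not cover libraries such as TM replicate 2 or orthotopic replicate 3. No library was a duplicate: chi-square per degree of freedom was 28.4 to 429 between libraries of a group. Intervals and limits for a count of 0 cover counting error only. Alternatives were size factors by RLE, no filter, DESeq2 1.42.0, the compared groups alone, a replicate block, and each library left out. DESeq2 gave no p-value against TM for Cxcl9, Cxcl10, Cxcl11, Cxcl12, Ccl4, Ccl5, Ccl19 and Ccl22. Between sites it gave none for Cxcl1, Cxcl2, Cxcl13 and Ccl3. Ccl1, and Xcl1 between sites, had no adjusted p. All of these were left out of its calls. Sequences are from RefSeq (GRCm38.p6; 27 of 39 members matched).

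The members and the gene lists were chosen with earlier results of these data known. Every member is accounted for; those with a group mean of at least 1 CPM or a call are given in every library. Of each pathway list the text gives the counts and may name the 3 members with the smallest adjusted p and receptors of the ligands described. Cell type markers are described by their summed CPM. Some genes of the pathway lists are counted there but not reported here singly.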

Additional observations from a re-analysis of the deposited data

How the results depend on the processing

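Leaving out 1 library at a time, the number of lower members ranged over 2 to 14 in TMP and 8 to 22 in TMPC against TM, and the number of higher members over 0 to 1 in TMP. Between sites the higher members ranged over 1 to 8. In these fits the calls over all genes also varied, with 483 to 2371 lower and 1067 to 2514 higher in TMP. Over all genes 1310 to 3152 were lower in TMPC, and 288 to 2591 were higher between sites. Fitting only the groups compared left 6 lower in TMP and 10 in TMPC, where 1451 of 14950 and 1580 of 14844 genes were lower. That fit ended the calls of Cxcl9, Cxcl10, Cxcl11, Cxcl15 and Ccl24 in TMP. In TMPC it ended those of Cxcl9, Cxcl10, Cxcl11, Cxcl12, Cx3cl1, Ccl3, Ccl4, Ccl7, Ccl8 and Ccl22. DESeq2 called 2 higher in TMPC against TM, where 3364 of 16617 genes were higher, and 12 higher and 1 lower between sites. Same-numbered libraries of a pair of groups had correlations of their deviations from -0.25 to 0.29, not all above 0.1, so the numbers were not taken to pair the libraries. With the number as a replicate block 5 were lower in TMP, 10 in TMPC, and 5 were higher between sites. Over all genes 1286 of 15277, 1986 of 15277 and 948 of 15123 were then called in these directions. The block ended the calls of Cxcl9, Cxcl10, Cxcl11, Cxcl15, Ccl12 and Ccl24 in TMP. In TMPC it ended those of Cxcl9, Cxcl10, Cxcl12, Cx3cl1, Ccl3, Ccl4, Ccl7, Ccl8 and Ccl22, and between sites those of Ccl11, Ccl17 and Cxcl12. Other size factors and no filter on low counts kept every count within 1.5 times, and TMPC against TMP stayed at 0 calls in all settings tried. Without the filter Cxcl9 lost its TMP call, Ccl4 its TMPC call, and Ccl17 and Cxcl12 their site calls. Among the values followed through every fit, those that turned sign were all of members without a call. Not every member was followed in every comparison, so others may have turned. The TMP value without TM replicate 2 was 0.40 for Ccl5, 0.80 for Cxcl1, 0.83 for Cxcl2 and -0.17 for Cxcl3. The site value without orthotopic replicate 3 was -0.24 for Ccl3, -0.50 for Ccl4 and -0.81 for Cxcl1. Over the fits that left out 1 library, the range was -4.26 to 0.40 for Ccl5, -1.81 to 0.80 for Cxcl1, -0.94 to 0.83 for Cxcl2 and -0.17 to 0.52 for Cxcl3 in TMP, and -0.24 to 2.44 for Ccl3, -0.50 to 2.07 for Ccl4 and -0.81 to 1.96 for Cxcl1 between sites. The cause of these changes was not tested. There were 3 libraries a group, and counts of 0 allowed up to 0.201 CPM over the 12 libraries. Differences between TMP and TMPC in members near 0 there, such as Xcl1, Ccl20 and Ccl1, were not detectable at this depth.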
